A study of Mus musculus with 16 samples.

Results

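Polar fragments of diapaused mouse blastocysts were compared with mural fragments of diapaused blastocysts for their mature miRNAs. The comparison takes 6 of the 16 libraries of the series, 3 of polar and 3 of mural fragments, chosen by their tissue and treatment labels. Every miRNA name in the count tables was used. The polar fragment is the piece of a blastocyst that holds the inner cell mass, and the mural fragment is the trophectoderm of the opposite side, cut apart with a laser. The labels do not say how much trophectoderm a polar fragment also holds. Diapaused blastocysts had paused in vivo and were taken at EDG 7.5. Normal (WT) blastocysts at E4.5 gave 2 polar and 2 mural libraries, and blastocysts treated with an mTOR inhibitor (mTORi, no age given) gave 3 and 3. No strain, genotype, number of embryos per library or sex is given in the labels. They do not say that replicates are separate litters either, so p-values measure only the spread between these libraries. All values are shares of the miRNA in a fragment, so fewer cells of a type and less miRNA per cell cannot be told apart.

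A miRNA is a short RNA that guides repression of messenger RNAs, chosen mainly by pairing with the bases near its 5′ end called the seed. In diapause a blastocyst stops growing and waits, still able to resume, before it implants. The inner cell mass gives rise to the embryo, while the trophectoderm is the outer epithelium that goes on to the placenta. Several miRNA clusters are known for one of these lineages or for pluripotent cells. The miR-290/miR-295 cluster is the main cluster of mouse embryonic stem cells, and is also made in trophoblast. The imprinted Dlk1-Dio3 domain carries a large cluster expressed from the maternal chromosome, which is known for its variable silencing in cultured pluripotent cells. miR-322 and miR-503 are made from one X-linked transcript, act on cell cycle genes, and miR-322 is known as a miRNA of mouse trophoblast stem cells.

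The sequences of the miRNAs that the comparison turns on are shown because miRNAs with one seed were called together in some groups and apart in others. Mature sequences came from RefSeq (GRCm38.p6), which matched 89 of the 102 tested names and 16 of the 19 called ones. They read 5′ to 3′ with the seed, bases 2 to 8, in capitals. The first set is the miR-322/miR-503 cluster with miRNAs of other loci that carry the same seeds.
miR-322-5p: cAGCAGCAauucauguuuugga
miR-15a-5p: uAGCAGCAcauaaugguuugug
miR-15b-5p: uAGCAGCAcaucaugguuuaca
miR-503-5p: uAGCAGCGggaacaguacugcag
miR-351-5p: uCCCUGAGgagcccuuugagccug
miR-125a-5p: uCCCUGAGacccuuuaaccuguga
The second set is the Dlk1-Dio3 miRNAs that were tested, which share no seed.
miR-379-5p: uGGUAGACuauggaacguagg
miR-541-5p: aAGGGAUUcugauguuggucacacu
miR-409-3p: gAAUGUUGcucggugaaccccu
miR-127-3p: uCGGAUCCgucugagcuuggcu
The third set is the miR-148/miR-152 family and the miR-10 family, each with a single seed.
miR-152-3p: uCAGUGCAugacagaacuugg
miR-148a-3p: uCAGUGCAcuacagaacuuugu
miR-148b-3p: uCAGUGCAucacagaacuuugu
miR-10a-5p: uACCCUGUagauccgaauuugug
miR-10b-5p: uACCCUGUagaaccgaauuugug
The last set comes from the cluster of miR-290 to miR-295, of which the 5p arms of miR-290a, miR-292a and miR-293 share a seed.
miR-294-3p: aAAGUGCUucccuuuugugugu
miR-290a-5p: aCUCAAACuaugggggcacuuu
miR-292a-5p: aCUCAAACugggggcucuuuug
miR-293-5p: aCUCAAACugugugacauuuug

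Polar libraries 1 to 3 held 14500, 9510 and 9049 miRNA counts, and mural libraries 1 to 3 held 12607, 20051 and 14814. Of 1978 names, 497 had a count in some library of the series and 102 passed the filter on low counts. Those 102 held 92.9% to 94.4% of the counts in polar libraries and 96.1% to 96.6% in mural libraries. At an equal depth of 9049 counts, polar libraries showed 269, 254 and 257 names, against 195, 216 and 205 in mural libraries. The 10 most abundant names took 55.3%, 58.1% and 52.4% of polar counts and 65.5%, 62.2% and 64.2% of mural counts, so mural libraries spread their counts over fewer names. Replicates of a part differed by more than sampling noise, where chi-square over its degrees of freedom ran from 3.15 to 5.03 among polar and from 3.07 to 7.82 among mural pairs. Both mural pairs with replicate 2 stood above the other mural pair, at 6.48 and 7.82. Mural replicate 2 also held 306 of the 383 mural counts of miR-10a-5p, 18 of the 22 of miR-499-5p and all 14 of miR-375-3p, while it supplied 42.2% of mural counts overall. The miR-10a-5p result is given with and without it.

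Levels below are CPM, tested counts per 1000000 after scaling with TMM factors, which set libraries to a common level from miRNAs of middling difference. A log2 difference is polar minus mural and is given with its SE.

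Of the 102 tested miRNAs, 19 (18.6%) were called between polar and mural fragments, with edgeR's quasi-likelihood test at a Benjamini-Hochberg adjusted p under 0.05. Higher in polar fragments were 5 (4.90%): miR-379-5p, miR-541-5p and miR-409-3p of the Dlk1-Dio3 cluster, miR-152-3p and miR-5099. Lower in polar fragments were 14 (13.7%), of which 5 came from the miR-322/miR-503 cluster, 4 from the miR-290/miR-295 cluster and 2 from the miR-10 family. The remaining 3 were miR-101a-3p, miR-200b-3p and miR-378a-3p. For 43 miRNAs (42.2%) the 3 polar values lay all above or all below the 3 mural values, 19 higher and 24 lower. All 19 called miRNAs were among them. With 1 library left out, 10, 7 and 5 miRNAs were called without polar replicate 1, 2 and 3, and 8, 11 and 8 without mural replicate 1, 2 and 3. miR-322-5p, miR-351-5p, miR-294-3p, miR-379-5p and miR-541-5p were called in each of these 6 fits and miR-152-3p in the 4 in which it was tested. The other 13 kept their direction; 6 lost the call in some fits and 7 in every one (miR-378a-3p, miR-101a-3p, miR-293-5p, miR-503-3p, miR-200b-3p, miR-5099 and miR-409-3p). Of the 19, miR-152-3p, miR-379-5p, miR-541-5p and miR-409-3p reached the filter's minimum in polar libraries alone and miR-503-3p in mural libraries alone, so these 5 could be tested only because they were high in that part, and their calls with a library left out are no sign of stability. miR-152-3p fell below the filter without polar replicate 2 or 3.

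**Figure D1:**
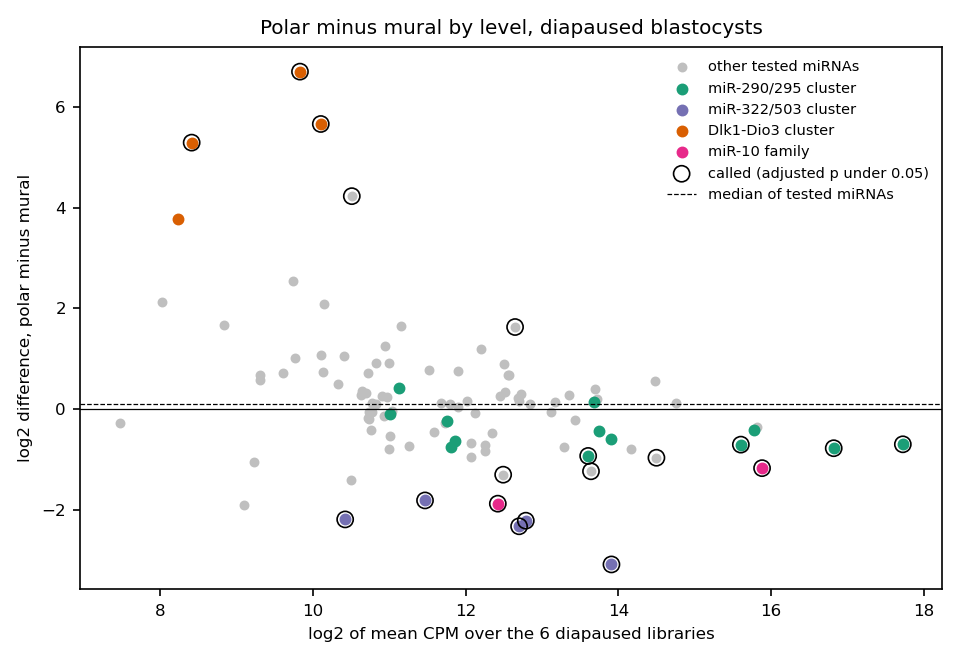
Polar minus mural log2 difference (y axis) against the log2 of the mean CPM over the 6 diapaused libraries (x axis) for the 102 tested miRNAs, with 4 lists coloured, called miRNAs circled and the median difference dashed. The miR-322/miR-503 members lie between -3.08 and -1.81, the called Dlk1-Dio3 members between 5.29 and 6.70, and the called miR-290/miR-295 members between -0.93 and -0.70.

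The split between higher and lower calls depends on how the libraries are scaled, and also on the filter and the test. The TMM factors used were 1.10, 1.10 and 1.26 in polar libraries and 0.818, 0.847 and 0.837 in mural libraries, so they fall apart by fragment. With them the median difference over the tested miRNAs was 0.10 on the log2 scale. DESeq2's size factors (RLE) put that median at 0.25 and called 14, with 5 higher and 9 lower. Library size alone put it at 0.58 and called 15, with 13 higher and 2 lower. With TMM kept, no filter on low counts gave 9 higher and 9 lower calls, and a minimum count of 30 gave 3 and 7. The 6 diapaused libraries fitted alone gave 13 and 16, a replicate block 9 and 14. DESeq2's own test gave 15 higher and 15 lower calls. Lower calls were the more numerous with any 1 diapaused library left out. Relative to the median miRNA, miR-294-3p was at -0.88, -0.88 and -0.89 under TMM, RLE and library size alone. A change of scaling moves all miRNAs by a like amount, so this agreement follows from the centring and is no sign of stability. All 19 called miRNAs kept their direction under the 3 scalings, and 6 were called under each of them: miR-322-5p, miR-351-5p, miR-152-3p, miR-379-5p, miR-541-5p and miR-5099, the last of which lost its call with any 1 library left out. For miR-152-3p, miR-379-5p and miR-541-5p, which passed the filter through polar libraries alone, this is no sign of stability. The sign and call of small differences therefore depend on the scaling chosen, and centring on the median is itself such a choice.

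**Figure D2:**
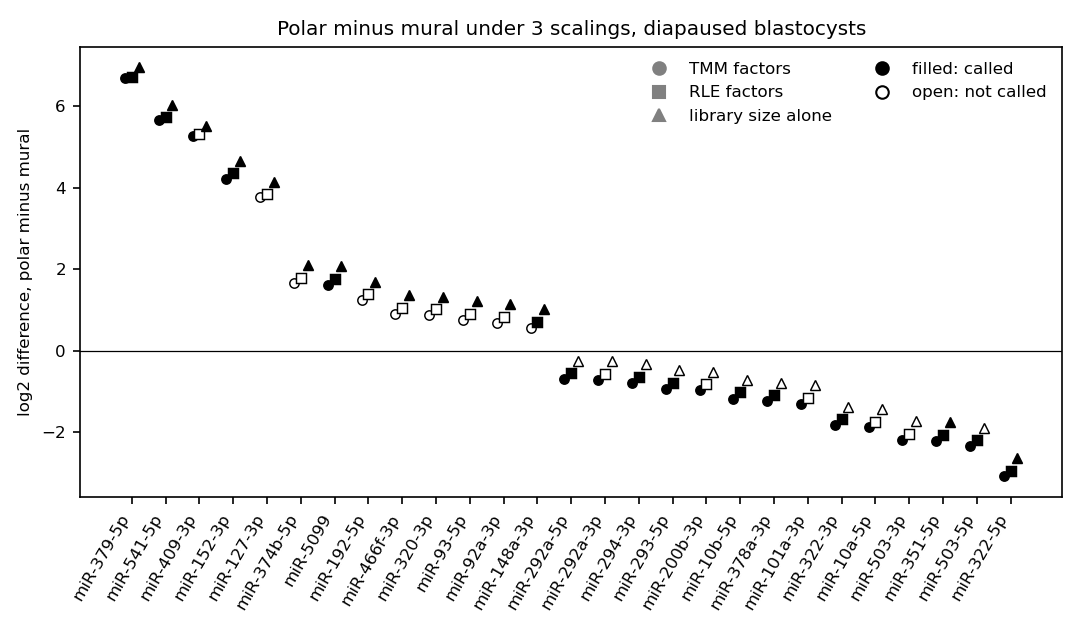
Polar minus mural log2 difference (y axis) of the 27 miRNAs called under at least 1 of 3 scalings (x axis), with circles for TMM, squares for RLE and triangles for library size alone, filled where called. Each miRNA moves upwards by a like amount from TMM to library size alone, and open symbols show where the call is lost.

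The miR-322/miR-503 cluster gave the clearest fall in polar fragments. miR-322-5p, a miRNA of the miR-15/miR-16 seed group that represses cell cycle genes, stood at 4330, 3746 and 1606 CPM in polar libraries 1 to 3, against 29226, 22425 and 31005 CPM in mural libraries 1 to 3. Every mural library was far above every polar one. The log2 difference was -3.08 ± 0.44 (SE), an 8.45-fold lower level in polar fragments, with an edgeR adjusted p of 0.000193.

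miR-351-5p lies in the same cluster but carries the miR-125 seed. It stood at 3264, 1924 and 2267 CPM in polar libraries, against 12655, 11580 and 10726 CPM in mural libraries, again without overlap (log2 difference -2.21 ± 0.46, edgeR adjusted p 0.00266). miR-503-5p, whose seed is close to that of miR-322-5p, stood at 4130, 1316 and 1039 CPM in polar libraries, against 13760, 6678 and 12989 CPM in mural libraries (log2 difference -2.32 ± 0.66, edgeR adjusted p 0.0260). Its highest polar value, in replicate 1, was still under the lowest mural value. The less abundant arms fell as well, miR-322-3p by 1.81 and miR-503-3p by 2.19 on the log2 scale (edgeR adjusted p 0.0184 and 0.0335).

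Of this list of 13 members, 5 passed the filter and each was lower, miR-503-3p having passed through mural libraries alone, so this tally is no support by itself. The list held 1.09% ± 0.42 of polar counts and 4.78% ± 0.76 of mural counts (SD, n = 3 each). By library the shares were 1.57%, 0.967% and 0.751% in polar fragments and 5.27%, 3.91% and 5.16% in mural fragments. The 5p arm made up 70.7%, 72.5% and 77.3% of the miR-322 counts in polar libraries and 84.8%, 87.8% and 86.2% in mural libraries, a within-precursor ratio that no scaling alters and that was not tested. For miR-503 the 5p share was 83.5% over the polar counts and 82.9% over the mural counts. In the annotation (GRCm38) both precursors lie on the minus strand of the X chromosome outside other genes, miR-322 at chrX:53054255-53054349 and miR-503 at chrX:53053984-53054054.

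The miRNAs of other loci that carry these seeds were not called. miR-15a-5p and miR-15b-5p share the seed of miR-322-5p and are made on other chromosomes, and had log2 differences of -0.05 ± 0.52 and 1.02 ± 0.85 (edgeR adjusted p 0.945 and 0.461). miR-125a-5p, which shares the seed of miR-351-5p, had a log2 difference of -0.21 ± 0.37 (edgeR adjusted p 0.756). With miR-322-5p as its most abundant member in mural fragments, the seed as a whole held 0.674% ± 0.147 of polar counts and 2.40% ± 0.32 of mural counts (SD, n = 3 each).

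**Figure D3:**
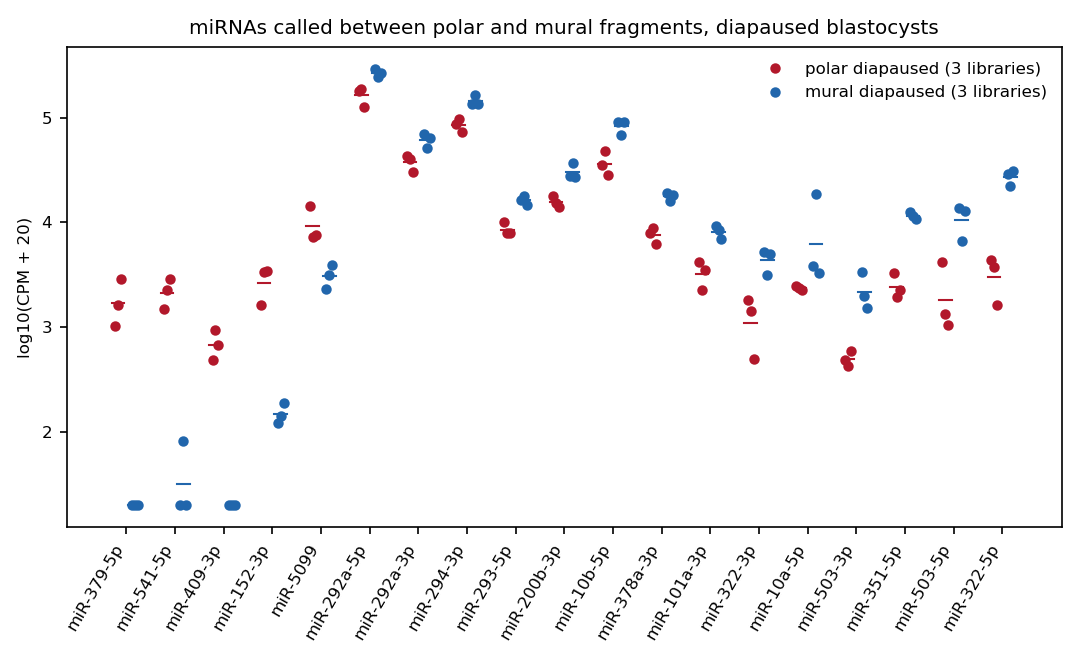
Level of each of the 19 called miRNAs (x axis) as log10(CPM + 20) (y axis), with 1 point per library, 3 polar (left, red) and 3 mural (right, blue), and a bar at the mean of the plotted values. Polar and mural points overlap for none of the 19, and mural replicate 2 stands far above the other mural libraries for miR-10a-5p.

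Dlk1-Dio3 miRNAs were found almost only in polar fragments. Of 101 names on the list, 41 had a count in polar libraries and 3 in mural libraries, with 372 of 33059 counts in polar fragments and 3 of 47472 in mural fragments. By library that was 126, 78 and 168 counts in polar fragments and 0, 1 and 2 in mural fragments. Names detected per library were 25, 19 and 31 in polar and 0, 1 and 2 in mural fragments. The share was 0.869% (Wilson 95% interval 0.730 to 1.03), 0.820% (0.658 to 1.02) and 1.86% (1.60 to 2.16) in polar libraries, highest in replicate 3.

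Only 4 members passed the filter, and they could do so only through the polar libraries, so their count is no support by itself. miR-379-5p had 15, 16 and 30 counts in polar libraries and 0 in each mural library, which makes it at least 21.9-fold higher in polar fragments (3 counts over the mural group; edgeR adjusted p 0.00114). miR-541-5p had 22, 22 and 30 counts in polar libraries, against 0, 1 and 0 in mural libraries. After TMM scaling the ratio was 79.7, with an exact 95% interval of 13.9 to 3190 (edgeR adjusted p 0.00266). miR-409-3p had 7, 9 and 7 counts in polar libraries and none in mural ones, at least 8.26-fold higher (edgeR adjusted p 0.0489). The remaining one, miR-127-3p, which is known to repress the imprinted gene Rtl1, had 10, 2 and 9 counts in polar libraries and 1 in all mural libraries. It missed the threshold narrowly (edgeR adjusted p 0.0517) and its groups did not overlap.

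The 97 names that were not tested pointed the same way in raw counts, with 193 counts over 37 names in polar fragments and 1 count in mural fragments. Among them miR-434-3p had 10, 4 and 10 polar counts, miR-323-3p had 11, 2 and 4, and miR-369-3p had 7, 3 and 5, each with none in mural fragments. All lie in one domain on chromosome 12. The precursors of miR-541 and miR-409 sit within the noncoding gene Mirg (GRCm38), and that of miR-379 lies upstream at chr12:109709060-109709125, outside annotated genes.

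Of the 3 tested members of the miR-148/miR-152 family, 1 was called higher in polar fragments, as were 5 of all 102 tested miRNAs. miR-152-3p, known with its relatives as a repressor of the DNA methyltransferase Dnmt1, stood at 1599, 3341 and 3401 CPM in polar libraries, against 100.4, 123 and 168 CPM in mural libraries. This was 24, 33 and 36 counts against 1, 2 and 2. Its log2 difference was 4.23 ± 0.67, 18.7-fold higher in polar fragments (edgeR adjusted p 0.000674). It passed the filter through polar libraries alone. miR-148a-3p, the most abundant of the family, stood at 26910, 25919 and 29194 CPM in polar libraries, against 19585, 19790 and 16257 CPM in mural libraries. These do not overlap, but the difference of 0.56 ± 0.22 was not called (edgeR adjusted p 0.0928); with RLE (0.0247) and with library size alone (0.00838) it was. miR-148b-3p did overlap between parts, with a log2 difference of 0.24 ± 0.39 (edgeR adjusted p 0.749). Their common seed held 3.50% ± 0.53 of polar counts and 1.65% ± 0.16 of mural counts (SD, n = 3 each). The precursor of miR-152 lies within Copz2 at chr11:96850393-96850465 (GRCm38).

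The miR-290/miR-295 cluster was the most abundant list in both parts and made up a smaller share of polar counts. It held 44.6%, 45.2% and 38.0% of the counts in polar libraries and 50.9%, 49.7% and 48.8% in mural libraries, means of 42.6% ± 4.01 and 49.8% ± 1.10 (SD, n = 3 each). Of its 13 tested members, 4 were called lower in polar fragments and none higher, where 14 of all 102 tested miRNAs were called lower. miR-294-3p, of the seed group known for sustaining the embryonic stem cell cycle, stood at 87525, 96690 and 72370 CPM in polar libraries, against 136590, 165488 and 136590 CPM in mural libraries. That is a log2 difference of -0.77 ± 0.15 (edgeR adjusted p 0.00171). miR-292a-5p, the most abundant miRNA of all, stood at 181778, 188217 and 127167 CPM in polar libraries, against 293468, 246425 and 265638 CPM in mural libraries (log2 difference -0.70 ± 0.17, edgeR adjusted p 0.0118). miR-292a-3p fell by 0.70 and miR-293-5p by 0.93 on the log2 scale (edgeR adjusted p 0.0260 and 0.0335).

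None of these 4 was called when libraries were scaled by size alone, where miR-294-3p had a log2 difference of -0.32 (edgeR adjusted p 0.170) and miR-292a-5p one of -0.24 (0.282). The median of the 13 members was -0.58 with TMM and -0.13 with library size alone. Relative to the median miRNA it was -0.69 and -0.70, an agreement that follows from the centring. Uncalled members spread more widely. miR-293-3p and miR-295-3p had log2 differences of -0.41 and -0.58 without overlap, while miR-290a-5p had one of 0.14 ± 0.36.

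Proportions within the cluster do not depend on scaling, and those of its most abundant members were close in the 2 parts. miR-292a-5p made up 41.5% ± 2.12 of the cluster's counts in polar libraries and 43.3% ± 2.60 in mural libraries (SD, n = 3 each). miR-294-3p made up 21.6% ± 1.11 in polar and 23.6% ± 3.12 in mural libraries. Of the 13 tested members, only miR-291b-5p and miR-290a-5p were without overlap, and they are given for that reason. miR-291b-5p made up 0.588%, 0.605% and 0.786% of the cluster in polar libraries, against 0.156%, 0.422% and 0.346% in mural libraries. miR-290a-5p made up 4.32%, 2.81% and 3.23% in polar libraries, against 1.93%, 2.11% and 2.02% in mural libraries. These proportions were not tested. The 5p arm took 81.3% of the polar and 81.5% of the mural counts of miR-292a, but 15.5% of the polar and 20.4% of the mural counts of miR-293. The seed shared by the 5p arms of miR-290a, miR-292a and miR-293 held 20.1% ± 2.71 of polar and 23.9% ± 1.47 of mural counts (SD, n = 3 each).

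Both tested members of the miR-10 family, whose genes lie in the Hox clusters, were called lower in polar fragments, as were 14 of all 102 tested miRNAs. miR-10b-5p stood at 35103, 47991 and 28532 CPM in polar libraries, against 91395, 68560 and 91088 CPM in mural libraries (log2 difference -1.17 ± 0.33, edgeR adjusted p 0.0260). miR-10a-5p stood at 2465, 2329 and 2267 CPM in polar libraries, against 3816, 18748 and 3268 CPM in mural libraries. The difference of -1.87 ± 0.57 (edgeR adjusted p 0.0335) rests on mural replicate 2; without that library it was -0.52 with an adjusted p of 0.480. The mature forms differ at 1 of 23 bases, so their separate values are uncertain, since it is not given how reads that match both were assigned. Their common seed held 4.24% ± 0.87 of polar and 7.41% ± 0.26 of mural counts (SD, n = 3 each), with no overlap.

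Among epithelial miRNAs, 1 of 5 tested members of the miR-200 family, which represses the Zeb transcription factors, was called. That is near the share over all tested miRNAs (19 of 102). miR-200b-3p stood at 17718, 15491 and 13888 CPM in polar libraries, against 27619, 37068 and 27150 CPM in mural libraries (log2 difference -0.96 ± 0.31, edgeR adjusted p 0.0354). miR-200c-3p, with the same seed and more counts, had a log2 difference of -0.35 ± 0.21 (edgeR adjusted p 0.280), which turned to 0.12 with library size alone. The family as a whole took 8.26% to 8.86% of polar and 8.96% to 10.3% of mural counts.

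Of the remaining called miRNAs, miR-101a-3p, known to repress the histone methyltransferase Ezh2, stood at 4196, 2227 and 3496 CPM in polar libraries, against 9139, 8516 and 6955 CPM in mural libraries (log2 difference -1.30 ± 0.40, edgeR adjusted p 0.0335). Its relative miR-101b-3p overlapped between the parts, with a log2 difference of 0.10 ± 0.30. miR-378a-3p, a miRNA known from energy metabolism, stood at 7927, 8808 and 6141 CPM in polar libraries, against 19183, 16175 and 18435 CPM in mural libraries (log2 difference -1.23 ± 0.36, edgeR adjusted p 0.0260). miR-5099 stood at 14255, 7290 and 7558 CPM in polar libraries, against 2310, 3125 and 3938 CPM in mural libraries (log2 difference 1.63 ± 0.53, edgeR adjusted p 0.0393).

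**Figure D4:**
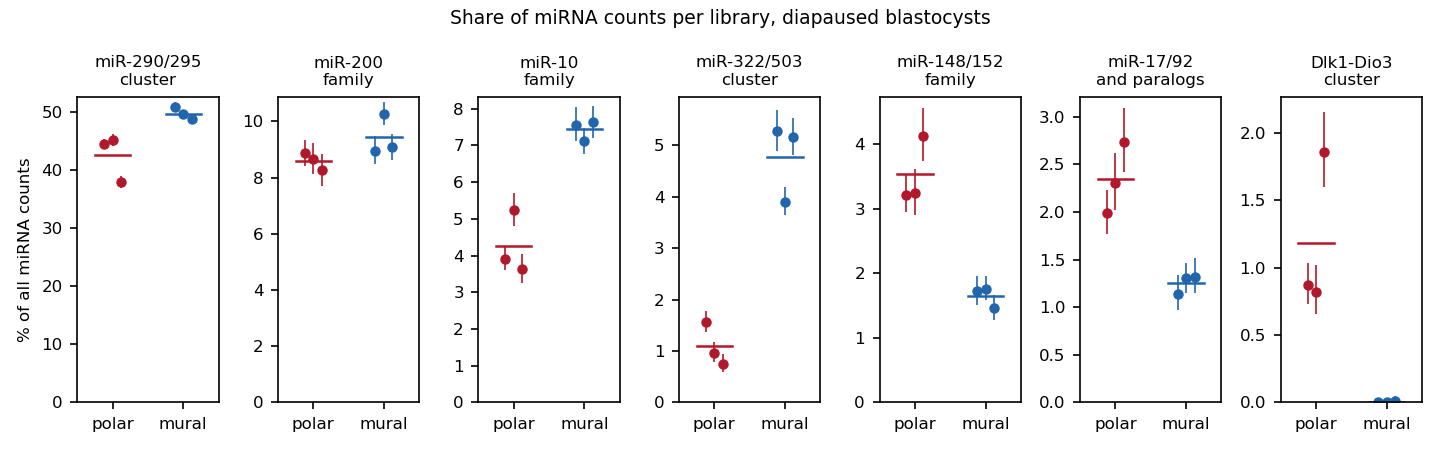
Share of all miRNA counts (y axis, percent) taken by each of 7 lists in each polar (left, red) and mural (right, blue) library of diapaused blastocysts, with Wilson 95% intervals for counting error and a bar at the group mean; each panel has its own axis from 0. The parts overlap in no panel, which also holds for several lists not shown, such as miR-30 and miR-26, but not for others, such as let-7. In the miR-200 panel the highest polar library (8.86%) and the lowest mural library (8.96%) have overlapping intervals.

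Every other list was without a called member. The miR-17/miR-92 cluster with its paralogs, known for promoting proliferation, held 1.99%, 2.30% and 2.74% of polar counts and 1.14%, 1.30% and 1.32% of mural counts, without overlap, but none of its 6 tested members was called. Shares did not overlap either for the miR-183/miR-96/miR-182, miR-30, miR-26, miR-15/miR-16, miR-130/miR-301 and miR-378 lists. They overlapped for the let-7, miR-23/miR-27/miR-24, miR-99/miR-100/miR-125, miR-221/miR-222, miR-29, miR-34/miR-449, miR-101 and miR-181 lists. miR-92a-3p and miR-93-5p had log2 differences of 0.68 ± 0.34 and 0.76 ± 0.37 (edgeR adjusted p 0.183 and 0.177) and were called with library size alone (0.0382 each). The let-7 family, known to rise with differentiation, had a median log2 difference of 0.05 over 5 tested members, near the 0.10 of all tested miRNAs. All 5 tested miR-30 miRNAs had negative differences with a median of -0.95, as had 48 of all 102 tested miRNAs, and none was called. Nearest to a call came miR-30d-5p at -0.79 ± 0.29 (edgeR adjusted p 0.0669). No member was called either among 2 tested in each of the miR-183/miR-96/miR-182, miR-23/miR-27/miR-24, miR-15/miR-16 and miR-99/miR-100/miR-125 lists, or 1 tested in each of the miR-221/miR-222, miR-26 and miR-29 lists. The miR-34/miR-449 and miR-181 lists had no tested member. The miR-130/miR-301 list had none either, with 86 counts in polar and 19 in mural fragments. After miR-127-3p and miR-30d-5p, the uncalled miRNAs with the smallest p were miR-192-5p (log2 difference 1.26 ± 0.47, edgeR adjusted p 0.0736), miR-374b-5p (1.66 ± 0.65, 0.0900) and miR-148a-3p.

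Counts in 1 part alone were commoner in polar fragments, although mural libraries were deeper. Over the 3 libraries of each part, 119 names had counts in polar fragments only, 11 of them with at least 10. In mural fragments only, 60 names had counts, and 1 of them reached 10, miR-375-3p with its 14 counts in replicate 2. Outside the Dlk1-Dio3 list, the polar names with the most counts were miR-224-5p with 6, 3 and 20, miR-3473b with 6, 5 and 7 and miR-130b-5p with 6, 3 and 7. For miR-224-5p, which was not tested and is listed for its lack of mural counts, the bound was 10.4-fold (3 counts over the mural group). It rests largely on polar replicate 3, with 20 of the 29 polar counts. After miR-375-3p, the mural names with the most counts were miR-99a-5p with 3, 5 and 1 and miR-505-5p with 3, 1 and 4.

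The labels of the fragments were set against marker lists. Epiblast markers, 5 miRNAs of the miR-302/miR-367 cluster, gave 5, 2 and 8 counts in polar libraries and 0 in each mural library. They came from miR-302b-3p, miR-302d-3p and miR-367-3p, while miR-302a-3p and miR-302c-3p had none. A total of 0 in 47472 mural counts allows a share of up to 0.00632%. No miRNA list fixed here defines mural trophectoderm, so that label could not be checked in the same way.

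Markers of other cell types were sparse and did not all follow 1 part. Leukocyte markers (6 of 7 detected in polar, 3 of 7 in mural fragments) summed to 3 to 12 counts in polar and 1 to 4 in mural libraries. Endothelial markers (2 of 2 in each) summed to 4 to 11 in polar and 0 to 5 in mural libraries, and erythroid markers (2 of 5 in each), mostly miR-451a, to 3 to 15 in polar and 3 to 10 in mural libraries. Liver markers (3 of 4 in polar, 1 of 4 in mural) summed to 22 to 44 in polar and 7 to 25 in mural libraries, nearly all miR-192-5p, while the defining miR-122-5p had 2 counts in polar and 0 in mural fragments. Stromal markers (2 of 7 in polar, 1 of 7 in mural), mostly miR-143-3p, summed to 3 to 11 in polar and 11 to 33 in mural libraries. Muscle markers (2 of 7 in each) summed to 0 to 1 in polar and 2 to 18 in mural libraries, where miR-1a-3p and miR-133a-3p were at 0. Neural markers (0 of 6 in polar, 1 of 6 in mural) summed to 0 in polar and 0 to 3 in mural libraries, and stratified epithelial markers (3 of 4 in polar, 2 of 4 in mural) to 46 to 88 and 43 to 111. The part of these cells in the results was not tested.

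Polar and mural fragments of WT and mTORi blastocysts gave the same contrast in other libraries. In WT blastocysts 11 (10.8%) of the 102 miRNAs were called and in mTORi blastocysts 5 (4.90%), from shallower libraries of 1744 to 8366 and 2184 to 4386 counts. With 1 library left out, WT calls were 6 and 8 without polar WT replicate 1 and 2, and 4 and 7 without mural WT replicate 1 and 2. mTORi calls were 6, 4 and 3 without polar mTORi replicate 1, 2 and 3, and 0 without mural mTORi replicate 1, 2 or 3. With a diapaused library left out of the common fit, mTORi calls were 1, 0 and 1 without polar diapaused replicate 1, 2 and 3. They were 2, 6 and 6 without mural diapaused replicate 1, 2 and 3, and the cause was not tested. With a replicate block 5 were called in mTORi, of which 4 were among the 5 without it, and miR-203-3p was not. The blastocysts also differ in labelled age between diapaused and WT, and age and condition cannot be told apart. Of the 19 miRNAs called in diapaused blastocysts, 9 were called in WT and 4 in mTORi blastocysts. Such a tally is no support by itself, since 5 of the 19 passed the filter through 1 part alone. The filter and the fit also took in all 16 libraries. Differences between the contrasts were then tested directly. None of the 102 differences between diapaused and WT or between diapaused and mTORi blastocysts passed the test in edgeR (0% each), with 12 and 8 at an unadjusted p under 0.05; DESeq2 called 0 and 1.

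miR-322-5p was lower in polar fragments under each condition, with log2 differences of -3.08 ± 0.44 in diapaused, -1.57 ± 0.44 in mTORi and -3.54 ± 0.62 in WT blastocysts (edgeR adjusted p 0.000193, 0.0473 and 0.00231). miR-10b-5p was also lower under each, at -1.17, -1.21 and -2.12 in the same order (edgeR adjusted p 0.0260, 0.0473 and 0.00583). miR-351-5p was at -2.21 ± 0.46 in diapaused, 0.37 ± 0.59 in mTORi and -3.24 ± 0.64 in WT blastocysts, and its mTORi libraries overlapped between parts. The difference of that contrast between diapaused and mTORi blastocysts was -2.58 ± 0.74, with an edgeR p of 0.00297 and an adjusted p of 0.147. It was the 1 difference that DESeq2 called, at -2.49 ± 0.64 (DESeq2 adjusted p 0.00926), and edgeR called it without polar WT replicate 1 or 2 (adjusted p 0.0356 and 0.0308). For miR-203-3p the difference was called without a filter on low counts and without polar mTORi replicate 1 (-4.21 and -4.69 on the log2 scale, edgeR adjusted p 1.78e-16 and 0.00968). It rests on polar mTORi replicate 3, which held 748 counts of miR-203-3p, against 13 and 35 in polar mTORi replicates 1 and 2.

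Dlk1-Dio3 counts were 372 in polar and 3 in mural fragments of diapaused blastocysts, 80 and 3 in mTORi blastocysts, and 94 and 5 in WT blastocysts. The polar totals behind them were 33059 counts in diapaused, 8746 in mTORi and 6684 in WT blastocysts. Their polar shares were 1.18% ± 0.58, 0.943% ± 0.408 and 1.75% ± 1.01 in that order (SD, n = 3, 3 and 2). miR-379-5p itself had 61 polar and 0 mural counts in diapaused, 26 and 0 in mTORi, and 11 and 0 in WT blastocysts. Its polar levels were 999, 1620 and 2834 CPM in diapaused, 1788, 2538 and 5344 CPM in mTORi, and 2076 and 1441 CPM in WT libraries. miR-152-3p had 93 and 5 counts in diapaused, 11 and 0 in mTORi, and 1 and 2 in WT blastocysts. The difference of its contrast between diapaused and WT blastocysts was 4.15 ± 1.82 with an edgeR adjusted p of 0.352. miR-5099 was at 1.63 ± 0.53 in diapaused, -0.18 ± 0.76 in mTORi and 0.90 ± 0.72 in WT blastocysts, and its mTORi libraries overlapped between parts.

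miR-294-3p was at -0.77 ± 0.15 in diapaused, -0.08 ± 0.15 in mTORi and -0.13 ± 0.18 in WT blastocysts, and miR-292a-5p at -0.70 ± 0.17, -0.21 ± 0.17 and 0.01 ± 0.21. Differences between diapaused and mTORi blastocysts were -0.69 ± 0.21 for miR-294-3p (edgeR adjusted p 0.147) and -0.49 ± 0.24 for miR-292a-5p (0.453). Between diapaused and WT blastocysts they were -0.64 ± 0.23 and -0.71 ± 0.27 (edgeR adjusted p 0.352 each). None of these passed the threshold.

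**Figure D5:**
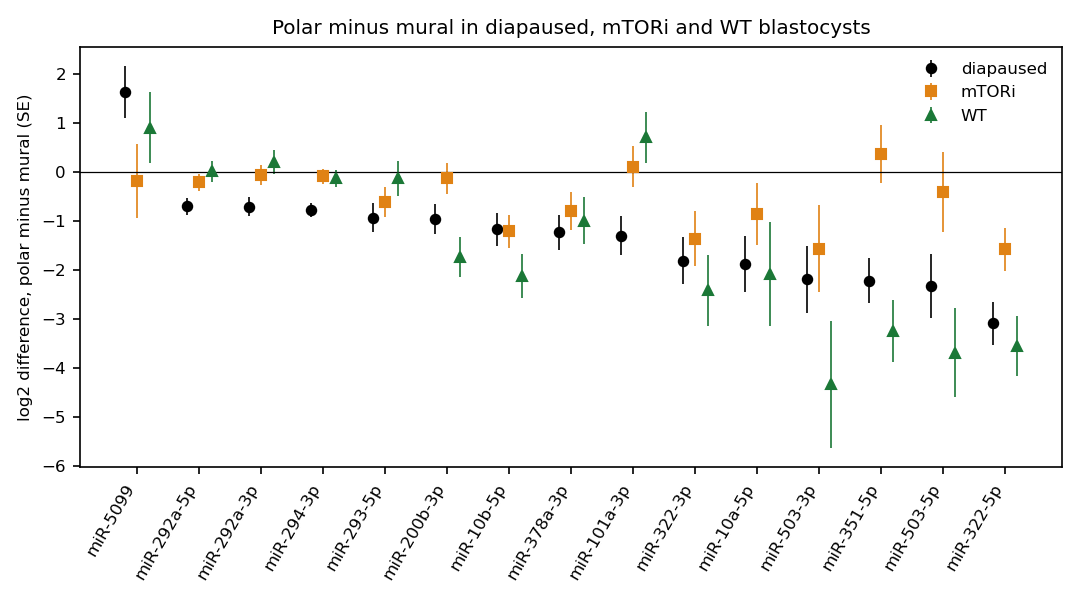
Polar minus mural log2 difference with its SE (y axis) in diapaused (circles), mTORi (squares) and WT (triangles) blastocysts for 15 of the 19 called miRNAs (x axis); the other 4 have a group without counts. The miR-322-5p and miR-10b-5p differences are negative in all 3 conditions, those of the miR-290/miR-295 members lie near 0 in mTORi and WT blastocysts except for miR-293-5p in mTORi, and the point estimates of miR-351-5p, miR-101a-3p, miR-5099, miR-292a-5p and miR-292a-3p take either sign.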

How the data were processed

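Small RNA libraries were made from laser-cut blastocyst fragments with adapters that carry unique molecular identifiers, per the labels' protocols, without size selection and with 12 to 20 PCR cycles. The authors deposited whole-number counts per mature miRNA, 1 table per library, not normalized. The submitters' processing notes name build GRCm38. Not given in the sources used here: the aligner, the annotation of miRNAs, and any collapsing of identifiers. Intervals therefore cover counting error only. Tissue and treatment labels placed the 3 mural mTORi libraries, since no part stands in their titles.

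Counts were tested in R 4.3.3 with edgeR 4.0.16. filterByExpr (minimum count 10, minimum total 15) kept 102 names, TMM scaled the libraries, and a quasi-likelihood model with 6 group means was fitted over all 16 libraries (10 residual degrees of freedom, common dispersion 0.142). Calls were two-sided at a Benjamini-Hochberg adjusted p under 0.05. Same-numbered mTORi libraries deviated together (correlations of 0.16, 0.11 and 0.18, each the highest for its number), as a hint from the data and not from the labels. Where a group had no count, a fold is a bound from 3 counts over that group, and with 1 to 3 counts the count ratio has an exact 95% interval. Such a bound leaves out the error of the other group's counts. Bounds and ratios use library sizes scaled with TMM factors, so they share that choice of scaling. DESeq2 1.42.0, RLE, library size alone, other filters, a replicate block and each library left out were alternatives.

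Named miRNAs were all called ones, the 10 most abundant, up to 4 per list with a called member or of markers, the 10 with most counts in 1 part alone, the 5 nearest to a call, the 3 with the smallest p in each test between conditions, and their other arms. Other names (miR-290a-5p, miR-291b-5p, miR-295-3p, miR-92a-3p, miR-15a-5p, miR-15b-5p, miR-125a-5p and markers at 0) were chosen after their values were seen. The comparison, lists and rules were chosen with earlier results of these data known.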

Additional observations from a re-analysis of the deposited data

Results flagged for a closer look

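miR-101a-3p stood out because its libraries were ordered oppositely in diapaused and WT blastocysts. In diapaused blastocysts all 3 polar libraries lay under all 3 mural libraries, with a log2 difference of -1.30 ± 0.40 (edgeR adjusted p 0.0335). That call was lost with any 1 diapaused library left out, with RLE and with library size alone. In WT blastocysts both polar libraries lay above both mural libraries, at 6747 and 5765 CPM against 3116 and 4425 CPM, with a log2 difference of 0.71 ± 0.52 (edgeR adjusted p 0.494). A lack of overlap, in either direction, held for 53 of the 102 tested miRNAs in WT blastocysts, so it is common there. Tested directly, the contrast differed by -2.01 ± 0.66 on the log2 scale between diapaused and WT blastocysts, with an edgeR p of 0.00714 and an adjusted p of 0.352, which does not pass the threshold. The WT values rest on 41 polar and 57 mural counts.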

How the results depend on the processing

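The 19 calls between polar and mural fragments became 10 with a minimum count of 30 (51 tested), 30 with DESeq2, 29 with the 6 diapaused libraries fitted alone, and 5 to 11 with 1 of these libraries left out (10, 7 and 5 without polar replicate 1, 2 and 3, and 8, 11 and 8 without mural replicate 1, 2 and 3). All 19 stayed called with DESeq2, 14 without a filter on low counts, 13 with RLE and 7 with library size alone; the cause of these losses was not tested. Left-out libraries kept miR-322-5p, miR-351-5p, miR-294-3p, miR-379-5p and miR-541-5p called each time; the last 2 could pass the filter through polar libraries alone. WT calls were 20 with DESeq2 and 7 with the WT libraries alone, 4 to 8 with a WT library left out, and 10 to 14 with a library of another condition left out. mTORi calls were 9 without the filter, 10 with DESeq2, 0 with the mTORi libraries alone, 0 to 6 with an mTORi library left out, and 0 to 7 with a library of another condition left out. Differences between the diapaused and mTORi contrasts were called for 1 miRNA without the filter and 1 with DESeq2, and for 0 to 1 with a library left out. Among uncalled miRNAs, library size alone turned miR-200c-3p to 0.12 and miR-293-3p to 0.054; with a library left out miR-182-5p ran from -0.13 to 0.33 and miR-20a-5p from -0.21 to 0.48. As shares of tested counts, the miR-290/miR-295 cluster held 51.7% in mural and the miR-200 family 9.07% in polar fragments. Diapaused libraries share only replicate numbers: deviations of same-numbered diapaused libraries correlated at 0.11, -0.01 and 0.36, and not every library correlated best with its own number. A replicate block gave 23 calls, the 19 among them, and 19 in WT. Same-numbered WT libraries correlated at 0.31 and the other WT pairs at -0.31. With 2 libraries per WT group these values must mirror each other, so they are no sign of pairing. A count of 0 over a part allows up to 84.6 CPM in polar and 78.5 CPM in mural fragments.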
